A study of Hordeum vulgare with 39 samples.

Results

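Messenger RNA of the barley (Hordeum vulgare) endosperm was compared with that of the seed maternal tissues at 16 days after pollination (DAP), using the 3 libraries labelled as endosperm and the 3 labelled as seed maternal tissues at that stage, 6 of the 39 libraries of a seed development series. All plants were of the six-rowed spring cultivar Morex, raised in a climate chamber under long days, with no treatment and no genotype difference between the groups. Seeds were dissected by hand, poly-A RNA was sequenced as single-end reads, and reads were counted for 83990 transcript entries, called genes here. The labels do not say whether the replicates of a tissue came from separate plants, so the p-values measure only the spread between libraries of a group, which may be technical. In the edgeR fit that spread is estimated over all 39 libraries.

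The endosperm of a cereal grain arises from fertilization and fills with starch and storage proteins during the middle of grain development. The seed maternal tissues are the layers around it, mainly pericarp and seed coat, which carry only the mother plant's genome, bring assimilates to the filial tissues and in part photosynthesize while the grain is green. In bulk RNA, fewer cells of a type and less RNA per cell cannot be told apart. The count table does not pair its identifiers with gene names, and the reference gene table at hand matched 0 of them. The tissue labels could therefore not be checked against known marker genes, and genes are described by identifier, level and position in the identifier order, with no function assigned.

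Total counts were 14209327 to 20447360 in the endosperm libraries and 25882919 to 32244363 in the maternal libraries. By correlation, a library in each group stood apart. Endosperm replicate 3 correlated with replicates 1 and 2 at 0.975 and 0.982 (Pearson, across genes, log2(CPM + 1), where CPM is a gene's count scaled to a library total of 1000000), against 0.985 between those replicates. Maternal replicate 1 correlated with replicates 2 and 3 at 0.983 and 0.986, against 0.994 between them. In maternal replicate 1, 451 of 10455 genes at 10 CPM or more lay at least 2-fold below both other maternal libraries and 253 at least 2-fold above both, while replicate 3 had 7 and 2 such genes. In endosperm, replicate 1 had 261 of 9280 genes at least 2-fold above both others and 104 at least 2-fold below both. Replicate 2 had 90 and 64 such genes, and replicate 3 had 151 and 199. By this measure endosperm replicate 3 did not stand apart from replicate 1. The library numbers in the titles fall into 6 blocks, and none holds both tissues at this stage: endosperm replicates 1 and 2 lie in one, endosperm replicate 3 in another and the 3 maternal libraries in another. A fit with a term for this block reaches the comparison only through libraries of other stages and of the embryo.

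The endosperm placed its counts on far fewer genes than the maternal tissues. Counted from the most abundant gene down, 197, 123 and 35 genes made up 50% of the counts of endosperm replicates 1, 2 and 3, against 1437, 1336 and 1346 genes in the maternal replicates. The most abundant gene alone took 4.46%, 5.77% and 6.90% of the counts of the endosperm libraries, and 0.377%, 0.701% and 0.694% of the maternal ones. The 10 most abundant took 27.2% ± 6.07 and 3.04% ± 0.281 (mean ± SD, n = 3 each). The groups did not overlap in any of these measures, and each difference had an exact two-sided permutation p of 0.1, the smallest that 3 against 3 libraries can give. At 1 CPM, 16404, 16051 and 14216 genes were detected in the endosperm libraries and 19018 to 19176 in the maternal ones. The mean difference was -3517.3 genes, and -2846.8 without endosperm replicate 3. With each total taken without the 100 most abundant genes of the library it was -1519.7. With every library drawn down to 14209327 counts and a gene counted at 1 read, endosperm replicates 1 and 2 had 28619 and 28426 genes, above the 27539 to 28261 of the maternal libraries, and endosperm replicate 3 had 23418 (exact permutation p = 1).

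**Figure D1:**
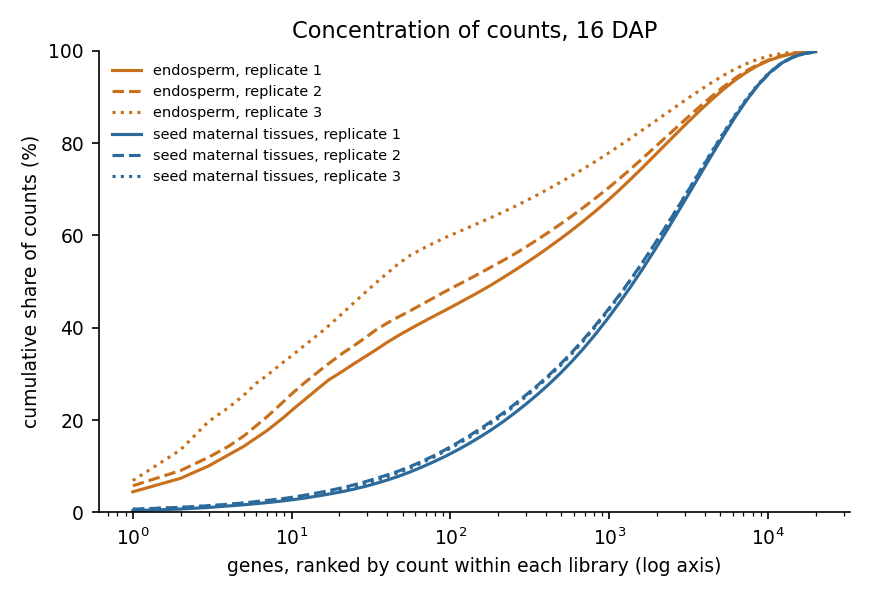
Cumulative share of library counts (y axis, %) against genes ranked by count within each library (x axis, log scale), 1 line per library at 16 DAP. At 100 genes the endosperm libraries stand at 44.4%, 48.5% and 60.0% and the maternal libraries at 12.7% to 14.2%.

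Of 29594 genes tested, 14572 (49.2%) were called different between the tissues, 6721 (22.7%) higher and 7851 (26.5%) lower in endosperm. A call needed an adjusted p under 0.05 in edgeR's quasi-likelihood test and a log2 difference of 1 or more in either direction. The genes called higher took 67.9%, 71.2% and 78.6% of the counts of the endosperm libraries and 11.6% to 12.2% of the maternal counts. The genes called lower took 42.3% to 44.0% of the maternal counts and 4.28%, 3.51% and 2.29% of the endosperm counts. The median log2 fold change was 2.85 among the higher genes and -3.50 among the lower ones, and 0.00 over all genes tested. The genes tested include some with 0 counts in all 6 libraries, whose fitted fold is exactly 0. With the 6 libraries filtered and fitted alone, the median over all genes tested was -0.10. Fitted differences of 8 or more on the log2 scale were found for 648 higher genes (9.64% of them) and 830 lower genes (10.6%). Where 1 tissue had 0 counts, the fitted value depends on the prior count and is not a measured fold. HORVU.MOREX.r3.1HG0001470.1, for instance, had a fitted difference of 8.22 at 0.952 CPM in endosperm against 0 in the maternal tissues. On the TMM-scaled level (CPM divided by the trimmed-mean factor of the library), all 3 endosperm libraries lay above all maternal ones for 5825 of the genes called higher (86.7%), and below them for 7537 of those called lower (96.0%). Over all genes tested, 27.2% lay wholly above and 32.1% wholly below. By plain CPM, the measure used to choose the genes named next, the libraries did not overlap for 3822 of the genes called higher (56.9%) and 7746 of those called lower (98.7%). By that measure 62.8% of all genes tested did not overlap, 3845 wholly above and 14736 wholly below.

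Calls were also counted by abundance. The mean that sets these classes is over both tissues, so a gene high in 1 tissue alone can enter a class through it and had to differ. Among the 67 genes with a mean above 1000 CPM over the 6 libraries, 53 were called higher in endosperm (79.1%) and 8 lower (11.9%), with a median log2 fold change of 10.5 among the higher ones. From 10 to 100 CPM, 1743 of 8826 genes were called higher (19.7%) and 2692 lower (30.5%), with medians of 1.70 and -2.76. Below 1 CPM, 2350 of 10422 genes were called higher (22.5%) and 1660 lower (15.9%), with medians of 4.85 and -5.25. Some calls in this class rest on very few reads, and fitted folds against 0 counts depend on the prior count. HORVU.MOREX.r3.1HG0003820.1 was called higher at a mean of 0.0652 CPM in endosperm against 0, with a fitted log2 fold change of 4.72. The shares called higher and lower were 24.3% and 35.5% from 1 to 10 CPM, and 28.3% and 27.1% from 100 to 1000 CPM. The balance of directions depended on the scaling. With TMM factors 46.1% of the calls were higher in endosperm, with library size alone 22.6% (3732 higher, 12775 lower, the median of all genes moving to -0.99), and with upper-quartile factors 54.9% (median 0.14). With the library-number block as a term, 8371 genes (28.3%) were called, of which 7673 were among the 14572.

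**Figure D2:**
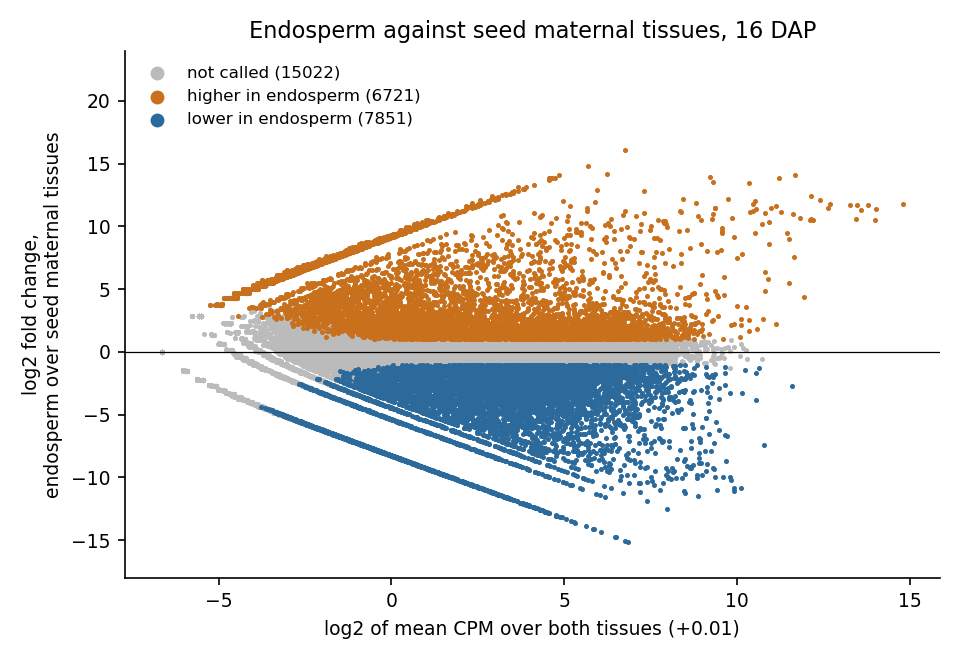
Log2 fold change of endosperm over seed maternal tissues (y axis, edgeR with TMM factors) against the log2 mean CPM of both tissues (x axis), 1 point per gene tested, coloured by call. The 6721 higher genes include nearly all points at the right edge, and the straight lines of points at the upper and lower rims are genes with few or 0 counts in one tissue, whose fitted folds depend on the prior count.

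The 4 genes described in full were chosen by rule among called genes whose groups do not overlap by CPM. They are those with the greatest fitted fold at 100 CPM or more and those with the highest level in each direction. Their lack of overlap and an adjusted p under 0.05 therefore follow from the choice. HORVU.MOREX.r3.1HG0068040.1 was the most abundant gene of the endosperm, at 44607, 57713 and 68980 CPM in its 3 libraries and 5.41, 43.3 and 51.6 CPM in the maternal ones. The groups did not overlap, and maternal replicate 1 lay far below the other maternal libraries. By edgeR the difference was 11.80 on the log2 scale, with an SE of 1.01 and an adjusted p of 5.01e-11. Its mean endosperm level (± SD, n = 3 per stage) was 1.55 ± 0.374 CPM at 4 DAP and 6914 ± 741 CPM at 8 DAP. It reached 57100 ± 12198 CPM at 16 DAP and 65091 ± 5627 CPM at 24 DAP, and stood at 33774 ± 1428 CPM in the 32 DAP endosperm. In the 16 DAP embryo it stood at 1.15 ± 1.33 CPM (n = 3).

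HORVU.MOREX.r3.1HG0001100.1 had 5477, 659 and 4955 counts in the endosperm libraries (358, 46.4 and 242 CPM) and 0 in all 3 maternal and all 3 embryo libraries at 16 DAP. It was at least 2009.8-fold higher in endosperm, by its mean against 3 counts per maternal library (edgeR adjusted p = 0.00362). The lowest endosperm library alone, replicate 2, gives a bound of 400.1-fold. Its endosperm replicates were far apart, and this also held at 24 DAP (39.7 to 1097 CPM) and at 32 DAP (36.5 to 947 CPM). In the maternal libraries of 24 DAP it reached up to 76.5 CPM. With the library-number block its adjusted p was 1 in edgeR, within a range of 1.89e-07 to 1 over the alternatives tried. The fitted log2 difference was then 15.76, against 16.06 without the block, but its error could not be estimated in that fit, and both values depend on the prior count.

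HORVU.MOREX.r3.2HG0195030.1 showed the opposite pattern, with 6980, 6258 and 5897 counts in the maternal libraries (270, 235 and 183 CPM) and 0 in every endosperm library. It was at least 1241.7-fold higher in the maternal tissues, against 3 counts per endosperm library (edgeR adjusted p = 4.72e-09). In endosperm it had been present at 15.9 ± 7.82 CPM at 4 DAP and 4.08 ± 2.20 at 8 DAP, and had 0 counts at 16, 24 and 32 DAP. In the maternal tissues it stood at 943 ± 230 CPM at 8 DAP, 229 ± 43.7 at 16 DAP and 11.7 ± 10.4 at 24 DAP (n = 3 each), so the level at 16 DAP lay between those of its neighbouring stages. The 16 DAP embryo held 13.8 ± 5.44 CPM.

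HORVU.MOREX.r3.2HG0178690.1 had the highest maternal mean of the genes called lower in endosperm whose groups did not overlap, at 3338, 7011 and 6943 CPM, against 816, 346 and 217 CPM in endosperm. The groups did not overlap, and the lone low maternal value was again replicate 1. The log2 difference of endosperm over maternal tissues was -2.72, with an SE of 0.31 and an adjusted p of 9.48e-09 by edgeR. The embryo lay between both tissues at this stage, at 2604 ± 1016 CPM (n = 3). In endosperm, 16 DAP was the stage with the lowest mean, 460 ± 315 CPM, against 1126 ± 81.8 at 8 DAP and 901 ± 151 at 24 DAP.

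**Figure D3:**
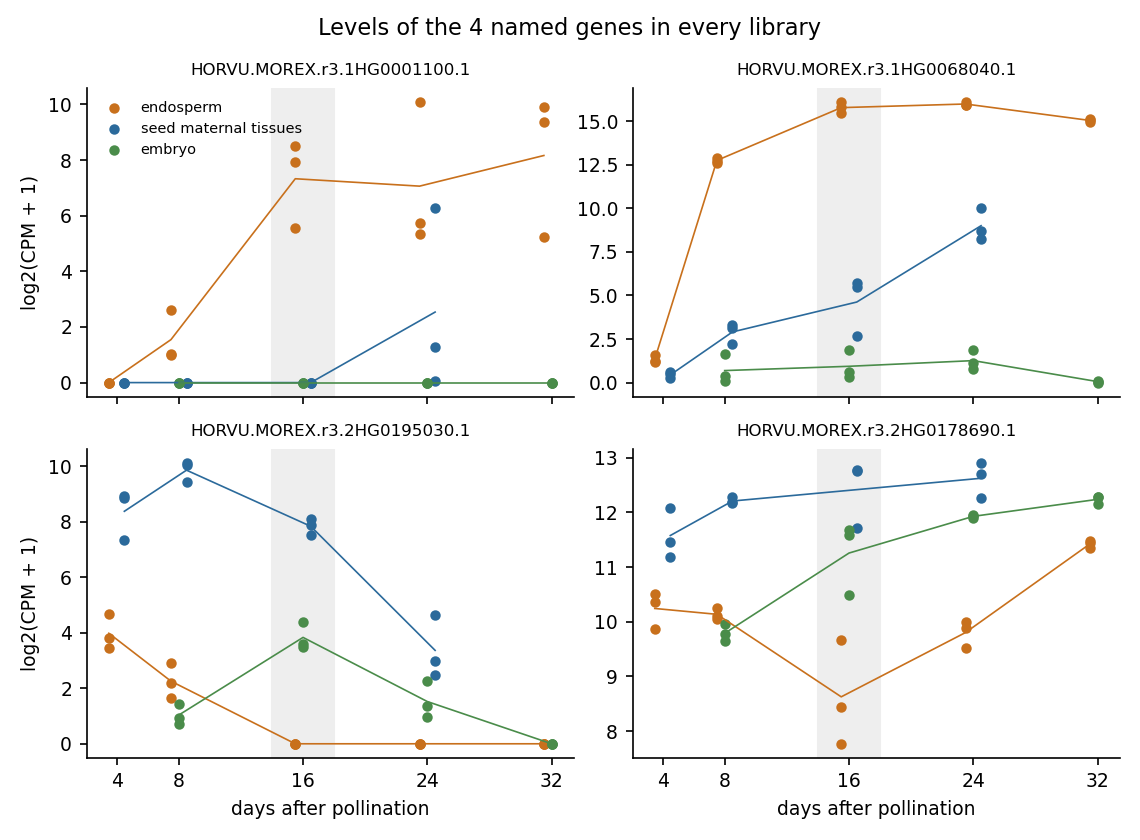
Level of the 4 named genes (y axis, log2(CPM + 1)) by days after pollination (x axis) in endosperm, seed maternal tissues and embryo, 1 point per library, with lines through group means and 16 DAP shaded. HORVU.MOREX.r3.1HG0001100.1 and HORVU.MOREX.r3.2HG0195030.1 have 0 counts in the other tissue at 16 DAP, while HORVU.MOREX.r3.1HG0068040.1 stands at 5.41 to 51.6 CPM in the maternal libraries of 16 DAP and at 302 to 1057 CPM in those of 24 DAP.

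The 100 genes with the highest mean CPM in endosperm, and the 100 with the highest in the maternal tissues, were chosen by a level that enters the comparison, which favours a difference in that direction. Of the endosperm list, 94 were called higher in endosperm and 0 lower, where 22.7% and 26.5% of all genes tested were, with a median absolute log2 fold change of 8.81, and 0 were at 3 counts or fewer in every maternal library. Of the 100 most abundant maternal genes, 68 were called higher in the maternal tissues and 5 higher in endosperm, with a median absolute log2 fold change of 3.07. The lists share 11 genes. The endosperm genes took 44.0%, 48.2% and 59.7% of the endosperm counts, 2.19% to 2.43% of the maternal counts and 6.53% to 8.67% of the 16 DAP embryo counts. The maternal genes took 11.7% to 14.1% of the maternal counts and 2.53% to 3.44% of the endosperm counts.

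Levels of these abundant endosperm genes were far lower in maternal replicate 1 than in the other maternal libraries. As a share of its mean endosperm level at 16 DAP, the median gene of the 100 stood at 0.0602% in maternal replicate 1, 0.565% in replicate 2 and 0.646% in replicate 3. Replicate 1 was the lowest maternal library for 74 of the 98 of them with at least 30 counts over the maternal libraries, and for 51 of the 53 that also had a log2 fold change of 8 or more. In those 53, which that fold chose, its level was a median 0.0869 of the mean of the other maternal libraries. Among all 3299 genes called higher with at least 1 CPM in the maternal tissues, replicate 1 was the lowest for 35.6%, close to the 35.5% over all genes tested at that level. In the 4 DAP maternal libraries the median gene of the 100 stood at 0.00298% to 0.00779% of its 16 DAP endosperm level. The range was 0.0181% to 0.0826% in the 8 DAP libraries and 2.13% to 7.50% in the 24 DAP libraries. In the 16 DAP embryo it stood at 0.0328% to 0.0809%. The part of carried-over endosperm RNA in these maternal values was not tested. Without maternal replicate 1, 14414 genes were called at 16 DAP, and 13423 of the 14572 kept their call.

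**Figure D4:**
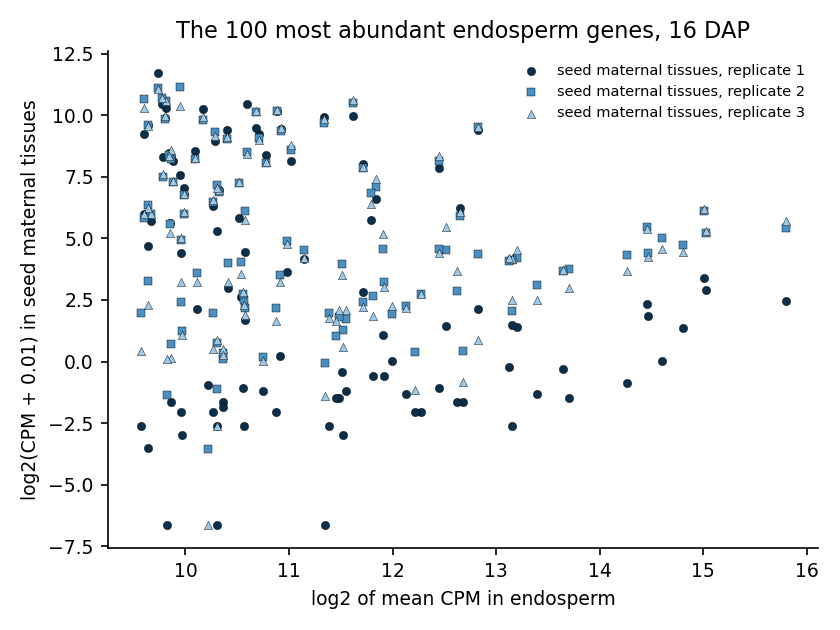
The 100 most abundant endosperm genes at 16 DAP, by log2 mean CPM in endosperm (x axis) and log2(CPM + 0.01) in each seed maternal library (y axis), 1 point per gene and library. Most points of maternal replicate 1 lie below those of replicates 2 and 3, except among genes with high maternal levels.

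Chromosome 1H, as labelled in the identifiers, held a far larger share of the endosperm counts than of the maternal counts. It took 24.3%, 28.5% and 38.3% of the counts of endosperm replicates 1, 2 and 3 and 12.8% to 12.9% of the maternal ones, with no overlap (17.5 percentage points apart on average, exact permutation p = 0.1, the smallest possible). The other 6 chromosomes each took on average 8.66% to 14.8% of the endosperm counts and 12.4% to 17.3% of the maternal counts. In numbers of called genes 1H did not stand out to that degree: 24.9% of its 3816 tested genes were called higher, against 21.0% to 24.1% on the other chromosomes, and 25.7% were called lower, against 25.2% to 29.4%. The excess lay in the most abundant genes, 30 of the 100 being on 1H and 6 to 17 on each other chromosome. Outside those 100 genes, 1H held 14.4% ± 0.384 of the remaining endosperm counts and 12.4% ± 0.122 of the remaining maternal counts (n = 3 each). The 1H share of endosperm counts was 16.0% ± 0.397 in 4 DAP and 14.1% ± 0.198 in 8 DAP libraries. It was 30.4% ± 7.19 in 16 DAP, 30.9% ± 2.16 in 24 DAP and 24.1% ± 1.31 in 32 DAP libraries (n = 3 each). Its mean in the maternal tissues was between 12.8% and 13.4% at each of the 4 stages, and it was 13.7% ± 0.127 in the 16 DAP embryo.

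**Figure D5:**
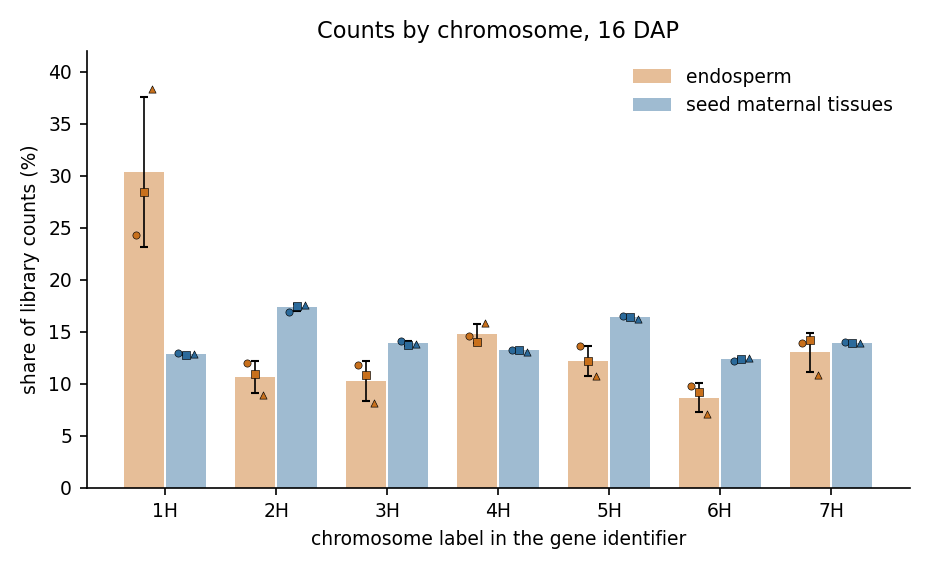
Share of library counts (y axis, %) by the chromosome label in the gene identifier (x axis) at 16 DAP; bars are means, error bars SD (n = 3) and points single libraries (circle, square and triangle for replicates 1, 2 and 3). On 1H the endosperm libraries reach 24.3%, 28.5% and 38.3%, and the maternal libraries stay at 12.8% to 12.9%.

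Genes called in the same direction were often neighbours in the identifier order. Of the genes called higher, 33.7% were followed by a tested gene that was also called higher, against 22.9% of all tested genes placed on a chromosome being called so. For genes called lower the values were 34.4% and 26.7%. There were 95 runs of 5 or more neighbouring tested genes called higher (605 genes, the longest of 14) and 87 runs called lower (494 genes, the longest of 10). Such runs also arise from the shares of called genes alone, and the number expected from them was not estimated. A run passes over entries that were not tested. The 4 runs with the most endosperm counts all lay on 1H. The first, of 6 genes, holds HORVU.MOREX.r3.1HG0068040.1 and reached 46355, 60231 and 71673 CPM in the endosperm libraries against 325, 478 and 549 CPM in the maternal ones. Nearly all of its endosperm counts came from HORVU.MOREX.r3.1HG0068040.1 alone, at 44607, 57713 and 68980 CPM. Most of its maternal counts came from another gene, HORVU.MOREX.r3.1HG0068060.1, at 280, 387 and 447 CPM. A run of 9 genes reached 23708, 34695 and 93208 CPM against 13.6, 98.5 and 113 CPM. A run of 8 genes reached 40591, 45253 and 60575 CPM against 10.0, 71.8 and 65.8 CPM. The run of 14, also on 1H, reached 28092, 35117 and 27821 CPM against 67.8, 101 and 111 CPM. Of these, HORVU.MOREX.r3.1HG0088140.1 alone held 26663, 33069 and 26359 CPM in endosperm and 2.59, 26.3 and 21.7 CPM in the maternal libraries.

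Endosperm replicate 3 exceeded the others mainly through a subset of these genes. In replicate 3, 21 of the 100 genes stood at 2-fold or more above the mean of replicates 1 and 2, 15 of them on 1H. Another 10 stood at 0.5-fold or less, and the median ratio was 0.889. The list was ranked by a mean that includes replicate 3, so a gene high there alone can enter through it. HORVU.MOREX.r3.4HG0342810.1, at 13.9, 9.71 and 3556 CPM in the endosperm libraries, is such a gene. A large excess in replicate 3 was also seen off 1H, for HORVU.MOREX.r3.4HG0417260.1 at 13969, 19193 and 66737 CPM. On the maternal side, the run with the most counts, 5 genes on 1H, had 1279, 2704 and 2946 CPM in the maternal libraries and 1.05, 0.352 and 0.0489 CPM in the endosperm libraries. Its median log2 fold change was -12.5, and maternal replicate 1 was again the lowest of the 3. Neighbours can be near-identical copies, between which reads can be split or dropped in the counting, so the values of single genes within a run are less certain than those of the run. The runs were picked by their counts after the values were seen.

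Genes of one tissue that were nearly absent from the other were counted in both directions, and the difference between these counts was not tested. The floor is easier to meet in endosperm, where 3 counts equal 0.147 to 0.211 CPM, against 0.0930 to 0.116 CPM in the maternal libraries. With a floor of 3 counts per library, 470 genes were at or under the floor in every endosperm library and at 10 CPM or more in the maternal tissues, and 151 of them had 0 counts in all endosperm libraries. In the other direction there were 73, of which 52 had 0 counts in all maternal libraries. Drawing all 6 libraries down to the same total, an alternative chosen after seeing the data, gave 489 and 103, but with more of the endosperm counts in a few genes the remaining endosperm genes were still sampled less deeply. Of the 73, 4 reached 100 CPM in endosperm (highest mean 215 CPM). Of the 470, 31 reached 100 CPM in the maternal tissues (highest mean 503 CPM). In the 16 DAP embryo, which did not enter the choice, 65 of the 73 (89.0%) were also at or under the floor, against 3.36% of all 7838 genes at 10 CPM or more in endosperm. Of the 470 maternal genes, 177 (37.7%) were at or under the floor in the embryo, against 3.72% of all 11498 genes at 10 CPM or more in the maternal tissues, and 52 stood at 10 CPM or more there. At other stages, 14 of the 73 were at or under the floor in every maternal library from 4 to 24 DAP, and 137 of the 470 in every endosperm library of the same stages. In their own tissue, 47 of the 73 stood at 10 CPM or more at 8 DAP and 38 at 24 DAP. Of the 470, 266 did so at 8 DAP and 329 at 24 DAP.

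Most differences at 16 DAP were also found in the separate libraries of the neighbouring stages. Of the 6721 genes higher in endosperm at 16 DAP, 4570 (68.0%) were called higher at 8 DAP and 172 (2.56%) lower, where 48.6% of all tested genes were called, 23.9% higher and 24.7% lower. The 4570 were 64.7% of the genes called higher at 8 DAP. At 24 DAP 4435 of the 6721 (66.0%) were called higher and 31 lower, where 44.4% of all genes were called, 18.8% higher and 25.6% lower. The 4435 were 79.5% of the genes called higher at 24 DAP. At 4 DAP 2924 (43.5%) were called higher and 934 (13.9%) lower, where 57.4% of all genes were called, 25.0% higher and 32.4% lower. Of the 7851 lower genes, 5413 (68.9%) were called lower in the 8 DAP libraries, 6079 (77.4%) in the 24 DAP and 4543 (57.9%) in the 4 DAP libraries, against 24.7%, 25.6% and 32.4% of all genes. These were 73.9%, 80.3% and 47.4% of the genes called lower at those stages.

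The change of the tissue difference between stages was tested directly. From 8 to 16 DAP the difference changed for 4218 genes (14.3% of those tested), toward endosperm for 1810 (6.12%) and toward the maternal tissues for 2408 (8.14%). From 16 to 24 DAP it changed for 1646 genes (5.56%), toward endosperm for 671 (2.27%) and toward the maternal tissues for 975 (3.29%), all by edgeR at adjusted p under 0.05 and a change of at least 1 on the log2 scale. A difference called in opposite directions at 8 and 16 DAP was seen for 312 of the 29594 genes tested. Of these, 172 were lower in endosperm at 8 DAP and higher at 16 DAP, and 140 the other way. For 118 of the 29594 genes the difference was higher at 16 DAP than at both 8 and 24 DAP, and for 98 it was lower than at both. Both tests use the same 16 DAP libraries, so an error in those enters both, and the number of such genes expected from it was not estimated. With the library-number block, 999 genes changed from 8 to 16 DAP (887 of them among the 4218), 1520 from 16 to 24 DAP (1339 among the 1646), and the 118 and 98 became 56 and 21. The block result from 8 to 16 DAP again rests on the single 24 DAP embryo library that ties the maternal block to the others.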

How the data were processed

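Whole-number read counts per transcript entry, 1 column per library and neither pooled nor normalized, were deposited by the authors. Per the submitters' processing notes, bcl2fastq, HISAT2 2.1.0, SAMtools and Subread 1.5.2 were used. How these were set, whether strand was used, how multiply mapped reads were counted and which genome build was taken are not given in the sources used here. Antisense and overlapping genes therefore cannot be told apart.

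CPM was computed over library totals. Genes kept by filterByExpr over the 13 groups (29594) were fitted with edgeR 4.0.16 in R 4.3.3: one coefficient per group over all 39 libraries, TMM factors, estimateDisp, robust glmQLFit and glmQLFTest, with Benjamini-Hochberg adjustment over all genes tested. Changes of the tissue difference between stages were contrasts in the same model. Standard errors were derived from the F statistic. The procedure was tested on simulated data with 50 genes changed at each size. At log2 changes of -1.5 and 1.5, 62% and 68% were recovered, and at -3 and 3, 90% and 88%. There were 12 calls among unchanged genes. The simulated endosperm had the maternal levels apart from the changed genes. It lacked the concentration of counts seen in the real endosperm, so it does not test the scaling. The changed genes were drawn from those above 1 CPM in the maternal tissues, so recovery below that level was not tested. Each gene had the same dispersion in all groups, and no effect of the library-number block was simulated. Single values per library were compared by exact two-sided permutation tests (SciPy 1.17.1). Folds against a group at or under 3 counts in every library are lower bounds, computed from mean CPM against the mean CPM of 3 counts, and cover counting error only. Alternatives were other scalings and filters, DESeq2 1.42.0, blocks and left-out replicates. A library-number block starts where sorted numbers differ by more than 100.

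Named genes are, for each direction, among called genes whose groups do not overlap by CPM, the one with the largest absolute log2 fold change at 100 CPM or more in the higher tissue and the one with the highest mean CPM. The comparison, lists and tests were chosen with earlier results of these data known.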

Additional observations from a re-analysis of the deposited data

Results flagged for a closer look

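The tissue difference itself differed between stages for 4218 genes from 8 to 16 DAP and for 1646 genes from 16 to 24 DAP (edgeR, contrasts of differences). For HORVU.MOREX.r3.1HG0068040.1 the difference of endosperm over seed maternal tissues changed by -4.21 on the log2 scale from 16 to 24 DAP (SE 0.95, edgeR adjusted p = 0.00528), its maternal level going from 33.5 ± 24.6 to 593 ± 406 CPM and its endosperm level from 57100 ± 12198 to 65091 ± 5627 CPM (mean ± SD, n = 3 each). For HORVU.MOREX.r3.2HG0195030.1 the difference changed by -7.68 from 8 to 16 DAP (edgeR adjusted p = 0.0387), a fitted value that depends on the prior count because all endosperm libraries at 16 DAP had 0 counts.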

How the results depend on the processing

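Over the alternatives tried, 112 values of gene counts and library measures kept their direction or stayed within 1.5 times of the reported count. Library measures were judged by direction alone, so the detection difference after drawing down to the same total was counted as kept. It was -1063.7 genes, against -3517.3, and endosperm replicates 1 and 2 then lay above every maternal library. The 11 values given next did not stay within that limit, and the cause was not tested. The library-number block gave 8371 called genes, 3666 higher and 4705 lower, and 999 changes from 8 to 16 DAP. Those values rest on the single 24 DAP embryo library that ties the maternal block to the others. Library size alone gave 3732 higher and 12775 lower genes and 6472 changes from 8 to 16 DAP. A log2 fold minimum of 2 left 4386 higher genes. Genes near absent from one tissue numbered 32 (endosperm side) and 264 (maternal side) at 20 CPM in the higher tissue, and 151 on the maternal side at 0 counts in every library. Leaving out 1 library gave 13749 to 14414 called genes, 3547 to 4220 changes from 8 to 16 DAP and 1176 to 2067 from 16 to 24 DAP. The 6 libraries fitted alone gave 11502 calls of 21968 genes tested, and DESeq2 13752. Same-numbered endosperm and maternal libraries did not deviate together (correlations of -0.05, -0.07 and -0.01), and with a replicate block 14414 genes were called. The 4 named genes kept their call in 55 of 56 alternatives, the exception being HORVU.MOREX.r3.1HG0001100.1 under the library-number block, where the fitted log2 difference was 15.76 against 16.06 but its error could not be estimated. These alternatives reuse the libraries by which the 4 genes were chosen, so a kept call is not independent evidence. Genes of low count are limited by the endosperm depth, where 3 counts equal 0.147 to 0.211 CPM.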
